A study of Homo sapiens with 21 samples.

Results

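The accessible sites of PRRX1, PRRX2, RUNX1, RUNX2 and RUNX3, a group of mesenchymal transcription factor genes, were taken as every consensus site whose nearest annotated gene was one of the 5. There were 82 such sites among 367900, of which 50 carried the name PRRX1, 4 PRRX2, 14 RUNX1, 12 RUNX2 and 2 RUNX3. ATAC-seq, which reads out open DNA through the cuts of the Tn5 transposase, was run on the human neuroblastoma cell line SK-N-BE(2) 72 h after lentiviral transduction of short hairpin RNAs (shRNAs). The 21 libraries formed 7 groups of 3. The Control group carried a non-silencing shRNA, shARID1A.2 and shARID1A.4 each carried an shRNA against ARID1A, and shARID1B.2 and shARID1B.3 each carried an shRNA against ARID1B. The combinations shARID1A/B.2.3 and shARID1A/B.4.2 carried 1 shRNA against each of the 2 genes. All groups were therefore transduced cells of 1 line, and ATAC-seq reads do not show how far ARID1A or ARID1B was silenced in a library. No source states that the 3 libraries of a group came from separate cultures, so p-values measure the spread between these libraries, which may be technical.

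ARID1A and ARID1B are alternative subunits of the BAF complex, an ATP-driven chromatin remodeller that keeps many distal regulatory elements open. PRRX1 and PRRX2 are paired-type homeobox factors of limb, craniofacial and other mesenchyme, and PRRX1 is counted among the regulators of the mesenchymal state of neuroblastoma, which stands beside an adrenergic state. The RUNX factors share a Runt domain that binds DNA together with CBFB. RUNX1 is known for blood development, RUNX2 for bone formation and RUNX3 for T cells and sensory neurons, and each RUNX gene is transcribed from a distal and a proximal start.

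Libraries held 16140029 to 44472230 reads in sites, a ratio of 2.76, and 2192 to 6309 of these fell in the 82 sites. Levels are given as CPM, counts relative to the TMM-scaled library size, as mean ± SD over 3 libraries. Changes are log2 ratios from the edgeR quasi-likelihood test with a standard error (SE) and a false discovery rate (FDR) over all 357029 tested sites. At an FDR under 0.01, a lower site counts as closed and a higher one as opened. All comparisons with Control share the same 3 Control libraries. Of the 82 sites, 81 passed the filter on low counts, and the remaining RUNX1 site, chr21:35136642-35136864 (GRCh38), had 0.127 CPM in Control. Most of the sites were weak. Their median level over the 21 libraries was 0.873 CPM against 1.02 for all tested sites, 44 lay below 1 CPM (49.1% of all tested sites did) and 6 exceeded 5 CPM. The 95% interval of the log2 change after combined silencing lay wholly between -1 and 1 at 60 of the 81 sites (74.1%, against 74.5% of all tested sites). At the other 21 sites the interval reached a 2-fold change, which limits what an uncalled weak site shows.

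A site carries the name of the gene with the nearest annotated start, and for names and distances the annotation used 1 start per gene. For RUNX1 and RUNX2 this was the distal start, so that their proximal starts and most of their gene bodies lay in sites named for other genes. For PRRX2 it lay in intron 1, so that the RefSeq start at chr9:129665647 fell in a site named ASB6. Distances given for PRRX2 sites are from the start in intron 1. These sites are described below as an addition chosen after the data had been examined. The upstream 250 bases of the RUNX starts (RefSeq, GRCh38.p14, printed along the gene's strand) are shown because the starts of 1 gene differed widely in accessibility. Capitals mark the letters TGTGGT, a RUNX motif, or TGANTCA, an AP-1 motif, on either strand (ACCACA is TGTGGT read on the other strand). TAATTA, a homeobox motif, was searched too, and in the sequences printed here no motif overlapped another.
RUNX1 proximal, chr21:34888700-34888949, minus strand: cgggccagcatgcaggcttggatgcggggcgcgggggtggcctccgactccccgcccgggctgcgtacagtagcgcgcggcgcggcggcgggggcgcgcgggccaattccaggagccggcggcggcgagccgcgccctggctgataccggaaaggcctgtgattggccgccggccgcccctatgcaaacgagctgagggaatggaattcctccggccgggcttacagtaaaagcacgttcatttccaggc
RUNX2 distal, chr6:45328080-45328329, plus strand: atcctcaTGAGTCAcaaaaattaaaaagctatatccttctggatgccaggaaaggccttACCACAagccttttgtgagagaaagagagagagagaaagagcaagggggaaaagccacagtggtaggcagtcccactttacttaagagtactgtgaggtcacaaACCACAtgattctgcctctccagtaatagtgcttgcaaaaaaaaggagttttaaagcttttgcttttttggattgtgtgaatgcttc
RUNX2 proximal, chr6:45422025-45422274, plus strand: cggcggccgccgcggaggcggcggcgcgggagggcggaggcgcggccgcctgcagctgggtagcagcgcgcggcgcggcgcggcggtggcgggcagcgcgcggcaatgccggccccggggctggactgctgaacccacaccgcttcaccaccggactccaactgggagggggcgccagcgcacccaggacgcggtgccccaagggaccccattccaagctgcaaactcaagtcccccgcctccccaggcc
RUNX3 distal, chr1:24965011-24965260, minus strand: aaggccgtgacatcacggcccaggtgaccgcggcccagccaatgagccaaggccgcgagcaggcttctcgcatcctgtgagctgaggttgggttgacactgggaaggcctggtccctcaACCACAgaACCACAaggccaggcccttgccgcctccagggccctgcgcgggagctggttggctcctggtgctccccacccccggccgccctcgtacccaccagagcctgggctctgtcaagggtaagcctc
RUNX3 proximal, chr1:24930277-24930526, minus strand: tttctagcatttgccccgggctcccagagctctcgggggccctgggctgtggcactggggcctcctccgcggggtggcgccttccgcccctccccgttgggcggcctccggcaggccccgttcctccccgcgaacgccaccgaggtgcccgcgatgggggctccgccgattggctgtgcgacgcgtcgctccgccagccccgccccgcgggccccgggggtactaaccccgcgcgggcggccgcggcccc
The distal RUNX2 window held 2 RUNX motifs and 1 AP-1 motif at 41.6% GC, and the distal RUNX3 window held 2 RUNX motifs at 67.6% GC. None of the 3 motifs occurred in the proximal windows of RUNX1 (71.2% GC), RUNX2 (78% GC) or RUNX3 (78.4% GC), nor in the upstream windows of PRRX1 (50.8% GC) and PRRX2 (66.8% GC). Of 35116 promoters of the same length, 11% held the RUNX motif, 4.35% the homeobox motif and 6.57% the AP-1 motif. A match is a description of letters and not of binding.

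The start regions of the 5 genes were open to very different degrees in Control cells. Counted per kilobase so that sites of different length can be compared, the proximal RUNX1 start was at 13.2 CPM per kb and the proximal RUNX2 start at 6.90 CPM per kb. The intron 1 site nearest to the annotated PRRX2 start was at 6.11 CPM per kb and the site just upstream of the annotated PRRX1 start at 4.59 CPM per kb. The RefSeq PRRX2 start was at 3.93 CPM per kb and the proximal RUNX3 start at 1.65 CPM per kb. The distal RUNX2 start was at 1.22 CPM per kb, and the site nearest to the distal RUNX1 start, 841 bases inside the gene, at 1.49 CPM per kb. The levels of the last 3 sites lay close together and their order was not tested. Windows at the RefSeq start of PRRX1 and at the distal start of RUNX3 overlapped no consensus site. However, an intron 2 site of PRRX1 at chr1:170664247-170665427, named here after its values were seen, began just downstream of the RefSeq PRRX1 start. It had 8.08, 9.21 and 8.90 CPM in Control and was not placed in the order per kilobase above. For scale, 12310 promoter sites had a median of 10.9 CPM in Control, and 84% of them were lower than the proximal RUNX1 site, 70.1% lower than the proximal RUNX2 site, 37.6% lower than the RUNX3 promoter site and 9.7% lower than the distal RUNX2 promoter site.

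**Figure D1:**
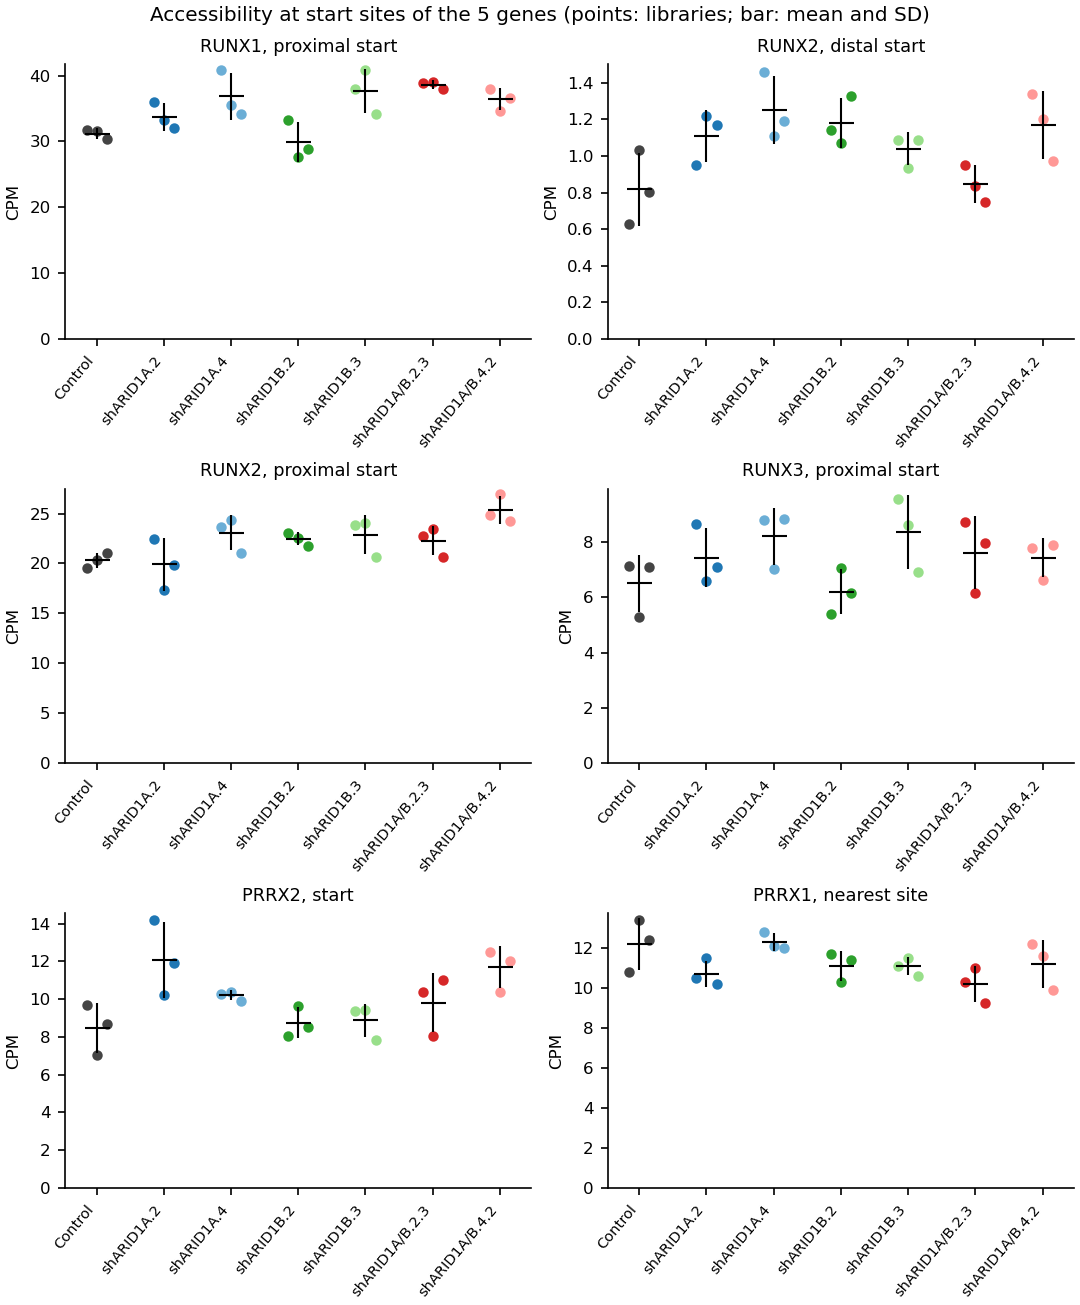
Accessibility in CPM (vertical axis, TMM-scaled) of the start sites of the 5 genes in each of the 21 libraries, by group (horizontal axis), with points for libraries and a bar for the mean and SD of 3, each panel on its own scale. The proximal RUNX1 site rose from a Control mean of 31.2 CPM to 38.6 and 36.4 CPM in the combinations, a call that was lost when libraries were scaled on promoter sites.

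Combined silencing left the start sites that carry a member's own name without a call. The site upstream of PRRX1 (chr1:170659708-170662368, 1690 bases before the annotated start) had 10.8, 13.4 and 12.4 CPM in Control. It had 10.3, 11 and 9.23 CPM with shARID1A/B.2.3, and with shARID1A/B.4.2 12.2, 11.6 and 9.88 CPM, so the groups overlapped. The mean change of both combinations was -0.19 (SE 0.093, edgeR FDR 0.159), and it passed the threshold only under scaling on promoter sites, at -0.42 (FDR 0.0001). At the RUNX3 promoter (chr1:24928819-24932762) Control libraries had 7.12, 5.30 and 7.10 CPM and the combinations 6.16 to 8.73 CPM, a change of 0.21 (SE 0.117, FDR 0.243). At the distal RUNX2 promoter (chr6:45327940-45328609) Control was at 0.818 ± 0.201 CPM, and the change was 0.27 (SE 0.226, FDR 0.462) with a 95% interval from -0.17 to 0.72. The intronic PRRX2 site at chr9:129696858-129698592 is nearest to the annotated PRRX2 start, which is not the RefSeq start. It was at 10.6 ± 2.39 CPM in Control and changed by 0.10 (SE 0.108, FDR 0.617). The RUNX1 site in intron 2 at chr21:35048227-35048759 was at 0.793 ± 0.139 CPM and changed by 0.08 (FDR 0.881). The strongest site named RUNX2 lies in intron 2 of the neighbouring gene SUPT3H at chr6:45270347-45272890. It was at 3.23 ± 0.344 CPM in Control and 3.17 and 3.15 CPM in the combinations, a change of -0.03 (SE 0.138, FDR 0.908). Among all sites within 3000 bases of a start 23.9% were opened and 6.21% closed, whereas none of the 8 such sites of the 5 genes was called. The 95% interval at the RUNX3 promoter ran from -0.02 to 0.44.

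The proximal RUNX1 start was the most accessible RUNX start and its level was higher in every combination library. This site, chr21:34888078-34890450, carries the name LOC101928240 although it covers the RefSeq proximal RUNX1 start and the annotation classes it as a RUNX1 promoter. Control libraries had 31.8, 31.6 and 30.3 CPM, shARID1A/B.2.3 had 38.9, 39.1 and 37.9 CPM and shARID1A/B.4.2 had 38.0, 34.7 and 36.6 CPM. The 6 combination libraries all lay above the Control libraries, and the change was 0.27 (SE 0.076, edgeR FDR 0.00613). Reads in promoter sites took 20.0% to 20.6% of all reads in Control libraries and 23.4% to 25.1% in combination libraries. Their part in this change was not tested, but with libraries scaled on promoter sites the change was 0.03 (FDR 0.815), and shARID1A/B.4.2 alone turned to -0.10 (FDR 0.327). It also lost its call without any 1 of the 3 Control libraries (FDR 0.0182 to 0.0531) and without shARID1A/B.2.3 replicate 1 or shARID1A/B.4.2 replicate 1 or 3 (0.0107 to 0.02). The ARID1B shRNAs differed at this site, with 29.9 ± 3 CPM for shARID1B.2 and 37.7 ± 3.33 CPM for shARID1B.3 (-0.33, SE 0.087, FDR 0.00406). The proximal RUNX2 start, chr6:45421501-45424444 in a site named SUPT3H, had 19.5, 20.3 and 21.1 CPM in Control, 22.8, 23.5 and 20.7 CPM with shARID1A/B.2.3, and with shARID1A/B.4.2 24.9, 27.0 and 24.3 CPM. Its change was 0.23 (SE 0.082, FDR 0.0357) and close to 0 under promoter scaling (-0.003, FDR 0.987). The PRRX2 start, chr9:129664906-129667058 in exon 1 of PRRX2 under the name ASB6, was at 8.45 ± 1.33 CPM in Control and changed by 0.34 (SE 0.107, FDR 0.0148) after combined silencing. It was opened by ARID1A silencing (0.40, FDR 0.00589) and not called after ARID1B silencing (0.07, FDR 0.807), and the difference between these passed the threshold (0.33, SE 0.086, FDR 0.0051). Of the 2 ARID1A shRNAs, shARID1A.2 passed the threshold (0.52, FDR 0.00127) and shARID1A.4 did not (0.28, FDR 0.165). The difference between these 2 shRNAs was not called (0.24, FDR 0.314). Promoter scaling reduced the combined change to 0.10 (FDR 0.483) and that after ARID1A silencing to 0.21 (FDR 0.11), so that its call was lost. The combined change passed the threshold under 5 of 14 alternatives, namely without the filter, with the replicate block, and without Control replicate 1, shARID1A/B.2.3 replicate 2 or shARID1A/B.4.2 replicate 2 (FDR 0.00146 to 0.00944).

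Across all 81 tested sites combined silencing closed 4 (4.94%) and opened 0, where 10.3% of all tested sites closed and 3.43% opened. The closed sites were 1 of 50 for PRRX1, 1 of 4 for PRRX2 and 2 of 13 for RUNX1, and none of 12 for RUNX2 or 2 for RUNX3. At an unadjusted p under 0.05 in edgeR, 8 sites were lower (9.9%, against 17.2% of all tested sites) and 11 higher (13.6% against 12%), none of them of RUNX2 or RUNX3, and DESeq2 also opened 0 and closed 4. Among the 37 sites with at least 1 CPM, 2 closed and 0 opened, against 16.5% and 6.2% of all tested sites at that level. By position, 2 of 42 intergenic and 2 of 36 intronic sites closed, where 9.39% of all intergenic and 12% of all intronic sites did, and neither the exon site nor the 2 promoter sites were called. These shares are set side by side as descriptions of a small set of neighbouring sites.

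**Figure D2:**
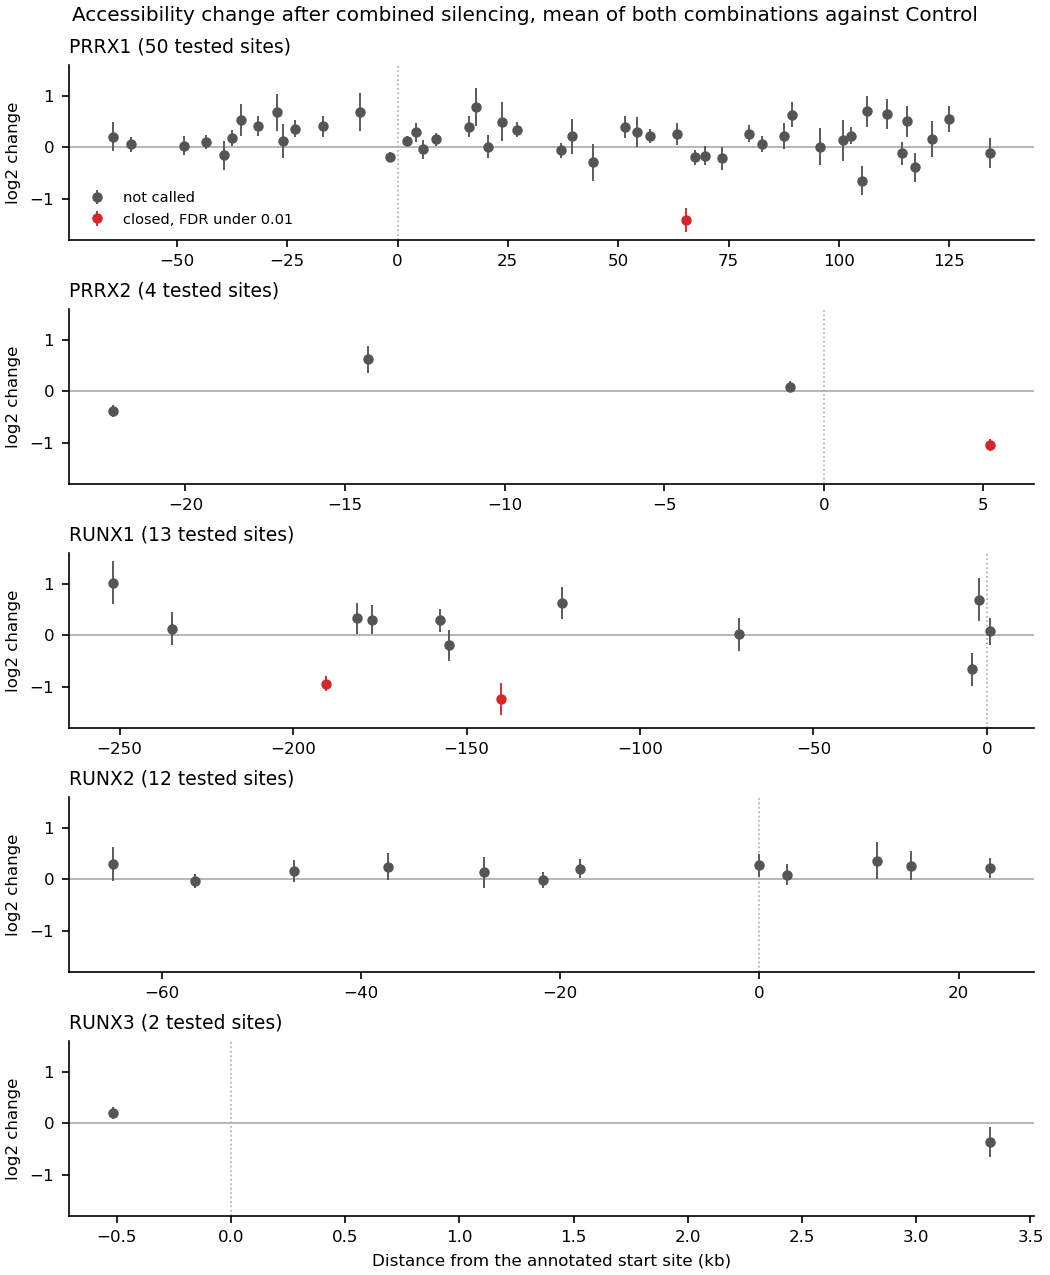
Log2 change of each member site after combined silencing (vertical axis, mean of both combinations against Control, bar = SE) by distance from the annotated start of its gene in kb (horizontal axis), 1 panel per gene, with called sites marked. The 4 closed sites lie 5203 bases past the annotated start of PRRX2, 65399 bases past that of PRRX1, and 140118 and 190551 bases upstream of RUNX1. The annotated PRRX2 start lies in intron 1 of the gene.

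Most of the uncalled sites lay slightly above 0. The median log2 change was 0.18 over the 81 sites, with 59 above 0, while the median over all tested sites was 0.03, and with libraries scaled on promoter sites the member median turned to -0.05 with 32 of 81 above 0. That scaling shifted the median of all tested sites to -0.20 and gave 56825 closed and 2601 opened sites in the table (36610 and 12247 otherwise), of which 6 and 0 were members. The gene medians were 0.20 for PRRX1, 0.13 for RUNX1, 0.22 for RUNX2 (range -0.03 to 0.37), -0.15 for PRRX2 and -0.08 for RUNX3. Leaving out Control replicate 1 lowered the member median to 0.10. The uncalled sites nearest to the threshold, chosen here by their FDR, were the PRRX2 intron 1 site at chr9:129675193-129677818 (6.98 CPM in Control, -0.39, FDR 0.0128) and, among higher sites, a PRRX1 site at chr1:170751682-170752486 (0.654 CPM, 0.64, FDR 0.0507).

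Among the members, the site inside PRRX2 had the lowest FDR. It lies in intron 1, chr9:129702607-129705370, and is 2764 bases long. Control libraries had 11, 7.64 and 11.4 CPM, shARID1A/B.2.3 had 6.24, 3.86 and 4.84 CPM and shARID1A/B.4.2 had 4.93, 4.10 and 5.38 CPM. All 6 combination libraries lay below the lowest Control library, although Control replicate 2 was itself low, and the change was -1.04 (SE 0.116, edgeR FDR 2.46e-12). Each shRNA alone gave a smaller fall. The means were 7.41 and 6.53 CPM with shARID1A.2 and shARID1A.4 and 5.84 and 5.91 CPM with shARID1B.2 and shARID1B.3. ARID1A silencing gave -0.52 (FDR 0.000441) and ARID1B silencing -0.77 (FDR 1.81e-07), and of the single shRNAs only shARID1A.2 missed the threshold (-0.43, FDR 0.0224). The combinations were lower than the single silenced groups by 0.40 on the log2 scale (-0.40, SE 0.089, FDR 0.000592). The 14 alternative settings and left-out libraries gave combined changes from -1.27 to -0.93, all past the threshold. The neighbouring site at the annotated start was uncalled, as given above. Control replicates 1 and 3 were closer to each other over all sites (chi-square of 1.089 per degree of freedom) than either was to replicate 2 (1.752 and 1.961), and the part of this in the PRRX2 values was not tested.

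**Figure D3:**
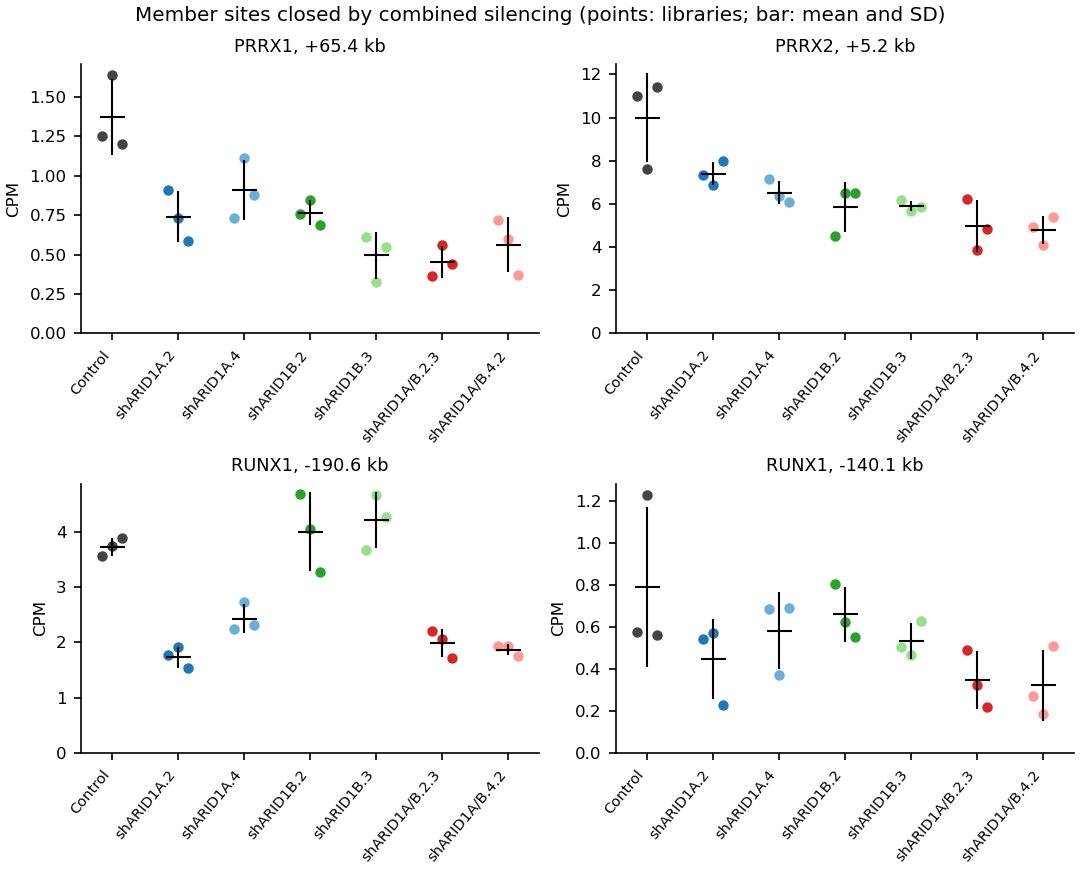
Accessibility in CPM (vertical axis) of the 4 member sites closed by combined silencing, in each library by group (horizontal axis), with mean and SD of 3. The distal RUNX1 site stays between 3.27 and 4.69 CPM in the 6 ARID1B-silenced libraries and falls to 1.53 to 2.73 CPM in the 6 ARID1A-silenced libraries.

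Among the sites named RUNX1, which leave out the stronger proximal start (31.2 CPM in Control), the strongest fell after ARID1A silencing. It was uncalled after ARID1B silencing. It is intergenic, 190551 bases upstream of the distal RUNX1 start, at chr21:35239451-35240319. Control libraries had 3.56, 3.74 and 3.89 CPM. The combinations had 2.20, 2.07 and 1.71 CPM (shARID1A/B.2.3) and 1.93, 1.93 and 1.76 CPM (shARID1A/B.4.2), all below Control, a change of -0.94 (SE 0.141, edgeR FDR 5.57e-08). The shARID1A.2 libraries had 1.77, 1.91 and 1.53 CPM and those of shARID1A.4 2.24, 2.73 and 2.32 CPM. The shARID1B.2 libraries had 4.69, 4.06 and 3.27 CPM and those of shARID1B.3 3.68, 4.68 and 4.28 CPM, overlapping Control. ARID1A silencing thus gave -0.86 (FDR 2.65e-06), and ARID1B silencing gave 0.14 (FDR 0.617) with a difference between them of -0.996 (SE 0.118, FDR 1.37e-10). The combinations (means 1.99 and 1.87 CPM) lay within the range of the ARID1A groups (1.73 and 2.43 CPM), and the fall against the mean of all single groups was -0.58 (FDR 2.19e-05). Alternatives ranged from -1.17 to -0.91 for the combined change, all past the threshold.

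The last 2 closed sites were weak, with a mean under 1 CPM over the 21 libraries, and were added to the named sites after their values were seen. The PRRX1 site in intron 4, chr1:170728014-170728240, had 1.25, 1.64 and 1.20 CPM in Control and 0.361 to 0.717 CPM in the 6 combination libraries, a change of -1.41 (SE 0.236, edgeR FDR 1.02e-06). It was closed by ARID1B silencing (-1.17, FDR 9.75e-05) and missed the threshold after ARID1A silencing (-0.74, FDR 0.0187), and the difference between the 2 genes was not called (0.44, FDR 0.272). The RUNX1 site at chr21:35189246-35189659 had 0.577, 1.23 and 0.561 CPM in Control and 0.184 to 0.510 CPM in the combinations, a change of -1.24 (SE 0.312, FDR 0.0015). This call rested on Control replicate 2, without which it was -0.75 (FDR 0.184).

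The central 300 bases of the 3 closed sites whose call did not rest on 1 library are shown (hg38, plus strand, TGTGGT in capitals), to show the sequence at the middle of the sites whose counts fell. Counts were taken over whole sites, which were 2764 bases long for PRRX2, so a change at the printed bases themselves was not measured.
PRRX2 intron 1, chr9:129703839-129704138: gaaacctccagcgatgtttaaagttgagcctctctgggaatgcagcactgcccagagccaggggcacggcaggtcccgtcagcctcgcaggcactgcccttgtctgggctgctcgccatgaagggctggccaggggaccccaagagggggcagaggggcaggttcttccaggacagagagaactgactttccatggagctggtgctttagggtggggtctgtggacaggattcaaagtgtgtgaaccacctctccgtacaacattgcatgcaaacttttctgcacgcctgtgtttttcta
RUNX1 distal upstream, chr21:35239736-35240035: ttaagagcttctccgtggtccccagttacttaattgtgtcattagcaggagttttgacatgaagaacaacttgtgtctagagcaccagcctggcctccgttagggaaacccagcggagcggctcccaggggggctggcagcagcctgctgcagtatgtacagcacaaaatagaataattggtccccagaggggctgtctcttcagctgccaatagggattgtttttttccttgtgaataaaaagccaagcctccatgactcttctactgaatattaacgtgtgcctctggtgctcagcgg
PRRX1 intron 4, chr1:170727978-170728277: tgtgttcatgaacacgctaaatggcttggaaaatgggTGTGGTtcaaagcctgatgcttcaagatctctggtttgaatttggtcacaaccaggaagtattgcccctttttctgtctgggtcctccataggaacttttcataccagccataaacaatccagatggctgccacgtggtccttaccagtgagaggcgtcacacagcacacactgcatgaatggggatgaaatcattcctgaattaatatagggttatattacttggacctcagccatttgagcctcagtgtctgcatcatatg
The PRRX1 window held 1 RUNX motif, and the other two held none of the 3 motifs. Over all 81 members, 20 windows held the RUNX motif (24.7%, against 20.1% of all tested sites), 7 the homeobox motif (8.64% against 7.87%) and 7 the AP-1 motif (8.64% against 10.9%). The RUNX motif stood in 14 of 50 PRRX1 windows, 5 of 12 RUNX2 windows and 1 of 13 RUNX1 windows. Among all sites closed by combined silencing, 18.4% held the RUNX motif, 14.1% the homeobox motif and 14.3% the AP-1 motif. Median GC content was 46% in the members and 46.7% in all tested sites, against 61.7% in the sites opened by combined silencing.

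Single silencing called a small number of these sites, at shares below those of all tested sites, and the difference was not tested. ARID1A silencing, as the mean of its 2 shRNAs, closed 3 of 81 sites (3.7%) where 5.37% of all tested sites closed, and opened 0 where 1.67% opened (edgeR, with 9 higher at an unadjusted p under 0.05, 11.1% against 8.6% of all tested sites, and 0 opened by DESeq2). The 3 were the PRRX2 intron site, the distal RUNX1 site and a PRRX1 site at chr1:170767713-170768283. The last, named after its values were seen, had 0.770, 1.15 and 0.681 CPM in Control and changed by -1.17 (FDR 0.00469). ARID1B silencing closed 2 of 81 (2.47%), the PRRX2 and PRRX1 intron sites, where 3.53% of all tested sites closed, and opened 0 where 1.39% did (5 higher at an unadjusted p under 0.05, 6.2% against 8.5%, and 0 by DESeq2). The medians over the 81 sites were 0.04 and 0.07. By single shRNA, 1 of 81 sites changed with shARID1A.2 (5.38% of all tested sites), 2 with shARID1A.4 (6.45%), 2 with shARID1B.2 (3.18%) and 2 with shARID1B.3 (8%). The combinations were lower than the mean of the single groups at 2 sites, those of PRRX2 and RUNX1 described above, where 6.85% of all sites were lower. They were higher at 0 where 0.969% were (14 higher at an unadjusted p under 0.05, 17.3% against 10% of all tested sites, and 0 by DESeq2). At the RUNX1 site the combinations (1.99 and 1.87 CPM) were not below shARID1A.2 alone (1.73 CPM).

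The combinations differed from each other at 2 of 81 sites (2.47%), both inside PRRX1, a share below that of all tested sites. With shARID1A/B.2.3, 4 of 81 sites closed (10.4% of all tested sites) and 2 opened (2.85%), both in intron 2 of PRRX1. With shARID1A/B.4.2, 3 closed (7.37%) and 0 opened (3.97%, with 4 higher at an unadjusted p under 0.05 in edgeR, 4.9% against 11.3% of all tested sites, and 0 by DESeq2). Direct comparison of the combinations called 2 sites, where 5.22% of all tested sites differed, and these were the same 2 PRRX1 sites. At chr1:170670951-170671890, Control had 3.99, 4.68 and 4.57 CPM. The libraries of shARID1A/B.2.3 had 5.81, 6.55 and 6.51 CPM there and those of shARID1A/B.4.2 4.35, 3.27 and 3.94 CPM. The first combination lay above all Control libraries (0.51, SE 0.131, FDR 0.00209), the second overlapped them (-0.20, FDR 0.426), and the difference was 0.71 (SE 0.135, FDR 6.58e-05). At chr1:170689268-170690349, Control had 2.17, 2.18 and 2.12 CPM, shARID1A/B.2.3 had 3.68, 3.25 and 3.12 CPM and shARID1A/B.4.2 had 1.93, 2.35 and 2.41 CPM. The difference was 0.59 (SE 0.161, FDR 0.00824). It passed the threshold under 18 of 26 alternatives, and was lost with DESeq2, DESeq2 size factors, no filter, and without either of shARID1A/B.2.3 replicates 1 and 2 or any of the 3 shARID1A/B.4.2 replicates, with a largest FDR of 0.0898. The third site in that order, upstream of RUNX1 at chr21:35204150-35204452 (0.523 CPM in Control), differed by -1.15 with an FDR of 0.0244 and was not called.
The window of the first PRRX1 site is shown because it differed both between the combinations and between the ARID1B shRNAs (hg38, plus strand, TAATTA and TGTGGT in capitals).
PRRX1 intron 2, chr1:170671271-170671570: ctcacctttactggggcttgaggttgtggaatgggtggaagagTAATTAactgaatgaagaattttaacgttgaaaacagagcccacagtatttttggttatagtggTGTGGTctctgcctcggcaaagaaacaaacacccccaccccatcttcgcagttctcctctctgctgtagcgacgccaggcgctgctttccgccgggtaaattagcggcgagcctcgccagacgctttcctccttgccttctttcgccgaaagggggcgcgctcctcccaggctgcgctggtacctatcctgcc

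The 2 ARID1B shRNAs also differed from each other at 3 of 81 sites, where 7.21% of all tested sites did, while the ARID1A shRNAs differed at 0 where 2.57% did (10 at an unadjusted p under 0.05 in edgeR, 12.3% against 15.4%). At the PRRX1 intron 2 site above, shARID1B.2 had 2.89, 3.56 and 3.68 CPM and shARID1B.3 had 4.97, 5.99 and 4.75 CPM, a difference of -0.65 (SE 0.143, FDR 0.000453). In intron 2 of RUNX2 at chr6:45330745-45331404, 2757 bases inside the distal start, Control had 0.914, 1.19 and 1.04 CPM. The shARID1B.2 libraries had 1.99, 1.75 and 2.12 CPM there and those of shARID1B.3 0.837, 0.955 and 0.672 CPM, a difference of 1.21 (SE 0.215, FDR 9.4e-06). This site was the only member opened by a single shRNA (0.89 with shARID1B.2, FDR 0.00468). Upstream of PRRX1 at chr1:170623275-170623627, the shARID1B.2 libraries had 1.18, 1.07 and 1.10 CPM against 0.614, 0.396 and 0.504 CPM with shARID1B.3, a difference of 1.16 (SE 0.286, FDR 0.00207). The last 2 sites were named after their values were seen. ARID1A and ARID1B silencing differed at 1 member, the distal RUNX1 site, where 4.74% of all tested sites differed.

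Inside the bodies of the RUNX genes, 6 sites closed and 3 opened that carry the names of other genes. This view, added after the data had been examined, took every site overlapping the RefSeq bodies of the 5 genes, 107 tested sites of which 75 were named for another gene. Of these 107, 8 closed (7.48%, against 10.3% of all tested sites and 12% of all intronic sites) and 3 opened (2.8% against 3.43%) after combined silencing. These shares were not tested against those of the table. Of the sites in the RUNX1 body 29 of 30 carried another name, in RUNX2 41 of 46, in PRRX2 3 of 7, in RUNX3 2 of 4 and in PRRX1 none of 20.

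**Figure D4:**
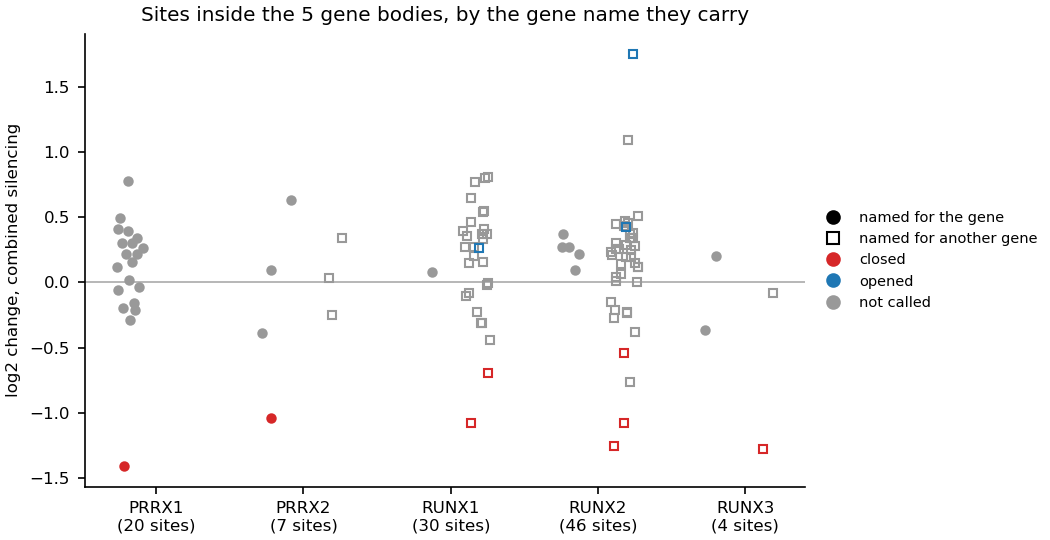
Log2 change after combined silencing (vertical axis) of every tested site inside the RefSeq bodies of the 5 genes, by gene (horizontal axis), with circles for sites that carry the gene's own name, squares for other names and colours for the calls. The calls of RUNX1, RUNX2 and RUNX3 inside their bodies, 6 closed and 3 opened, were all at sites with another name.

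In RUNX1, 2 intronic sites closed. The site at chr21:34821477-34823253 had 9.96, 7.77 and 8.22 CPM in Control, 3.94, 3.46 and 3.87 CPM with shARID1A/B.2.3, and with shARID1A/B.4.2 4.57, 4.74 and 4.08 CPM. It fell by 1.08 on the log2 scale (-1.08, SE 0.108, edgeR FDR 2.57e-14), with -0.85 after ARID1A and -0.20 (FDR 0.256) after ARID1B silencing, a difference of -0.65 (SE 0.091, FDR 3.74e-08). The site at chr21:34813585-34815159 went from 11.7 ± 0.380 CPM to 8.10 and 6.43 CPM (-0.70, SE 0.094, FDR 2.09e-09), and ARID1A and ARID1B silencing differed there too (-0.48, FDR 3.55e-06). This difference did not hold for every shRNA. The shARID1A.2 libraries (8.93 CPM, -0.39, FDR 0.0105) and the shARID1B.3 libraries (8.70 CPM, -0.43, FDR 0.00191) were at close levels, while shARID1A.4 was at 5.85 CPM and shARID1B.2 at 11.6 CPM, and the shRNAs of 1 gene differed from each other both for ARID1A (FDR 0.000179) and for ARID1B (FDR 0.00275). In RUNX3, the intron 5 site at chr1:24913227-24915053, named MIR6731, had 4.96, 3.90 and 5.53 CPM in Control and 1.65 to 2.27 CPM in the 6 combination libraries, a change of -1.28 (SE 0.139, FDR 9.28e-13). There both genes alone gave a fall of nearly that size, -1.16 with ARID1A and -0.99 with ARID1B, and the combinations did not pass the threshold against the single groups (-0.21, FDR 0.269).

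In RUNX2, 3 intronic sites closed, all under the name SUPT3H. The largest fall was at chr6:45445522-45446344, with 6.06, 6.29 and 5.49 CPM in Control, 1.44, 1.56 and 1.80 CPM with shARID1A/B.2.3, and with shARID1A/B.4.2 3.85, 3.77 and 4.08 CPM. Both combinations lay below Control (-1.26, SE 0.125, edgeR FDR 2.12e-14) and they differed from each other (-1.30, SE 0.166, FDR 2.45e-09). The ARID1A shRNAs differed there in the same sense, with 2.03 ± 0.0400 CPM for shARID1A.2 and 4.25 ± 0.803 CPM for shARID1A.4 (-1.07, FDR 1.67e-06). The ARID1B shRNAs differed as well, with 7.06 ± 0.844 CPM for shARID1B.2 and 3.99 ± 0.633 CPM for shARID1B.3 (0.82, FDR 1.18e-06), and shARID1B.3 alone closed the site (-0.56, FDR 0.0011). The shARID1A/B.2.3 combination thus carried the shRNA of each gene with the lower level. The site at chr6:45400589-45402025 went from 3.44 ± 0.217 CPM to 1.63 and 1.66 CPM (-1.08, FDR 1.1e-08). The one at chr6:45536810-45539129 went from 4.42 ± 0.302 to 2.59 and 3.52 CPM (-0.54, FDR 0.000605). There shARID1A/B.2.3 passed the threshold (-0.76, FDR 2.88e-05) and shARID1A/B.4.2 did not (-0.325, FDR 0.142), but their difference was not called (-0.43, FDR 0.0629). With shARID1B.3 alone this site was at 2.47 CPM (-0.84, FDR 7e-06). The 2 opened sites inside RUNX2 were the promoter of SUPT3H at chr6:45377070-45378620, at 52.0 ± 3.74 CPM in Control and 65.0 and 74.7 CPM in the combinations (0.42, FDR 4.16e-06, but 0.19 with an FDR of 0.0306 under promoter scaling), and a site at chr6:45527133-45527347 with only 0.132 CPM in Control (FDR 0.00209, and 0.0164 by DESeq2).

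Summed over its own-name sites, no gene lost or gained most of its accessibility. The PRRX1 sites summed to 75.8, 89.5 and 76.3 CPM in Control, to 82.6, 99.3 and 83.9 CPM with shARID1A/B.2.3, and with shARID1A/B.4.2 to 86.1, 82.7 and 81.0 CPM. For PRRX2 the sums were 31.6, 21.2 and 31.8 CPM in Control and 16.9 to 25.02 CPM in the combinations, so that Control replicate 2 lay among the combination libraries. The RUNX1 sums were 10.2 ± 0.486 CPM in Control and 9.33 ± 0.931 and 8.55 ± 0.161 CPM in the combinations, and the lowest were those of shARID1A.2, at 8.36 ± 0.574 CPM. The RUNX2 sums were 13.8 ± 1.46 CPM in Control, 13.9 and 16.4 CPM in the combinations and 16.4 ± 0.341 CPM with shARID1B.2. The RUNX3 sums were 7.26 ± 1.06 CPM in Control and 8.21 and 8.06 CPM in the combinations. The sums were not tested. Over the 21 libraries, which share groups and depth, summed log2 levels were compared with those of 14632 genes. The level of PRRX1 was most like those of P2RY1 (Pearson r 0.964), PPP1R3A (0.955) and TMEM200A (0.953). That of RUNX1 was most like C9orf57 (0.88), LINC00701 (0.861) and SUCNR1 (0.861), and that of RUNX2 like SLC7A11 (0.811), C6orf141 (0.789) and CCDC93 (0.789). The highest PRRX1 sums were those of shARID1A/B.2.3 replicate 2 (99.3 CPM) and Control replicate 2 (89.5 CPM). The part of these libraries in the correlations was not tested.

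Sites of the partners of the RUNX factors closed in a larger share than sites of the 5 genes, a difference that was not tested. The list held CBFB, the RUNX-binding subunit, the corepressors TLE1, TLE2, TLE3 and TLE4, the ETO family members RUNX1T1, CBFA2T2 and CBFA2T3, the kinase HIPK2, and the coactivators YAP1 and WWTR1. Of their 268 tested sites, combined silencing closed 71 (26.5%) and opened 10 (3.73%), with a median of -0.18, against a table median of 0.03. The closed sites included 23 of 58 for TLE1, 17 of 36 for TLE3, 15 of 33 for RUNX1T1 and 9 of 35 for TLE4, while YAP1 had 2 of 47, WWTR1 1 of 20 and HIPK2 1 of 17. CBFA2T3 carried no tested site. ARID1A silencing closed 32 of the 268 (11.9%, against 5.37% of all tested sites) and ARID1B silencing 22 (8.21% against 3.53%). Without TLE1, the gene with the most closed sites, combined silencing closed 48 of 210 (22.9%). Promoter scaling raised the closed sites to 96 and left 1 opened.

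**Figure D5:**
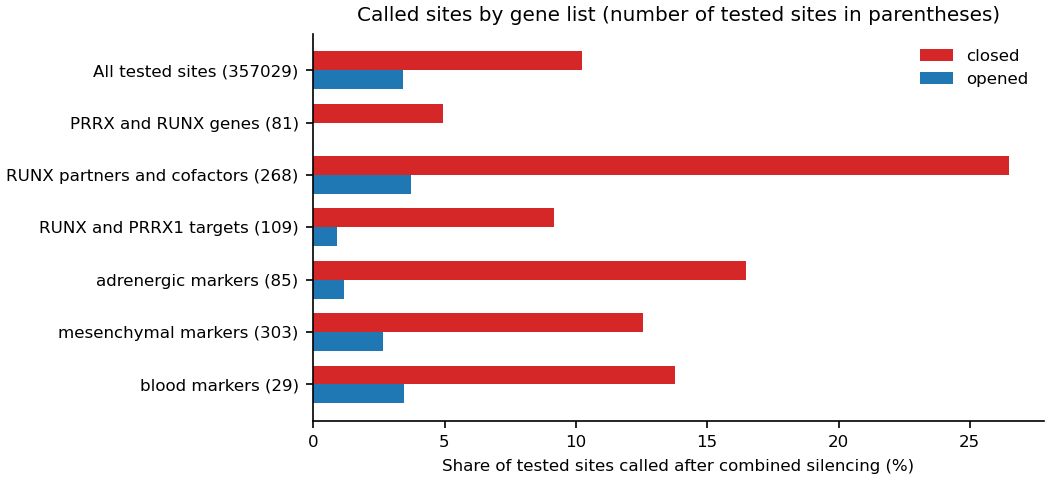
Percent of tested sites closed and opened by combined silencing (horizontal axis) for the 5 genes, the partner, target and marker lists, and all tested sites. The RUNX partners stand at 26.5% closed and the 5 genes at 4.94%, beside 10.3% for all tested sites. YAP1 and WWTR1 count in both the partner and the mesenchymal list, and SPI1 in both the target and the blood list.

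RUNX1T1, a corepressor known from its fusion with RUNX1 in leukaemia, was described by its site with the lowest p, which was not compared with the sites of the TLE genes. This site, in intron 5, had 13.2, 13.1 and 12.4 CPM in Control, 3.02, 3.32 and 3.30 CPM with shARID1A/B.2.3, and with shARID1A/B.4.2 4.30, 4.19 and 4.64 CPM, a change of -1.78 (SE 0.1, edgeR FDR 8.63e-28). ARID1A silencing gave -0.47 (FDR 0.00011) and ARID1B silencing -1.16 (FDR 3.21e-17), of which shARID1B.2 gave -0.75 and shARID1B.3 -1.57 (FDR of their difference 2.16e-07). The combinations lay below the mean of the single groups (-0.96, FDR 3.9e-17), although shARID1A/B.4.2 (4.38 CPM) was level with shARID1B.3 (4.35 CPM). Its promoter site was at 8.40 ± 0.612 CPM and uncalled (0.14, FDR 0.388). CBFB closed 0 and opened 2 of 7 sites. Its site over exon 1, chr16:67028481-67030179, went from 17.3, 13.4 and 15.9 CPM in Control to 16.1 to 20.5 CPM with shARID1A/B.2.3, and with shARID1A/B.4.2 21.9 to 25.4 CPM (0.44, SE 0.095, FDR 0.000172), and missed the threshold under promoter scaling (0.21, FDR 0.0373) and without Control replicate 2 (0.34, FDR 0.0122).

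Genes known in other tissues as targets of RUNX2, RUNX1 or PRRX1 closed at about the rate of the table. With 1 opened site their opened share was not compared further. Of 109 tested sites of 12 genes, 10 closed (9.17%, against 10.3% of all tested sites) and 1 opened (0.92% against 3.43%), and closed sites included 3 of 10 for the collagen gene COL1A2 and 2 of 4 for the bone factor SP7, while the protease MMP13 had 0 of 34. Markers of the adrenergic state closed at 14 of 85 sites (16.5%, against 10.3% of all tested sites) and opened at 1 (1.18% against 3.43%). Without Control replicate 3 they closed at 9 sites. ISL1 had 5 of 23 closed, and without that gene 9 of 62 closed (14.5%). Markers of the mesenchymal state other than the 5 genes closed at 38 of 303 (12.5%, against 10.3% of all tested sites) and opened at 8 (2.64% against 3.43%). This list shares YAP1 and WWTR1 with the partner list, and SPI1 stands in both the target and the blood list. Of the 38 closed sites 12 were of TWIST1, and without that gene 26 of 274 closed (9.5%). In all, 11 of the 16 genes had a closed site, among them SMAD3 with 7 of 18, CD44 with 3 of 16 and NOTCH2 with 2 of 4. FOSL2 had 2 closed of 10 and TBX18 5 of 61. VIM had 0 of 8, FN1 0 of 17, and SNAI2 2 closed and 3 opened of 40. Under promoter scaling the closed sites rose to 29 for the adrenergic and 60 for the mesenchymal list. In Control, the promoter sites of the adrenergic genes spanned 2.43 to 43.9 CPM, with such a site in 6 of 8 genes. Those of the mesenchymal genes spanned 0.778 to 72.1 CPM, with such a site in 9 of 16 genes. The medians were 23.8 and 27.3 CPM, against 10.9 CPM for all promoter sites. The lowest of each list, TH and MEOX1, lay below the lower quartile of all promoter sites (2.79 CPM). The blood markers PTPRC, SPI1 and CD3E had no promoter site. Of their 29 sites 4 closed (13.8%, against 10.3% of all tested sites), all of PTPRC, and 1 opened (3.45% against 3.43%).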

How the data were processed

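ATAC-seq was analysed in 21 SK-N-BE(2) libraries, 7 groups of 3. The authors aligned reads to GRCh38 per the labels, and deposited, in 6 tables, the raw read count of each library over 1 consensus site set, called after merging replicates. How reads were aligned and filtered, which caller was used and whether cuts were shifted for Tn5 is not given in the sources used here. Also deposited were a normalized signal (counts divided by size factors, by the authors), which was not tested, and the authors' DESeq2 log2 ratios and adjusted p-values, which were not used. The tables repeat the same Control columns. The nearest gene, class, distance and GRCh38 coordinates of a site came from the deposited HOMER annotation.

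Counts were tested with edgeR 4.0.16 (R 4.3.3): TMM scaling (factors 0.948 to 1.064), filterByExpr (minimum count 10, removing 10871 sites), all groups in 1 quasi-likelihood model without covariates (common coefficient of variation 0.0817), and Benjamini-Hochberg adjustment over all 357029 tested sites. SEs were derived from the test statistic. Every library was counted separately. The chi-square of replicate pairs was 1.08 to 2.50 per degree of freedom, which does not show whether libraries came from separate cultures. The script was tested on simulated data. Alternatives were DESeq2 1.42.0, DESeq2 size factors, TMM on promoter sites, no filter, a replicate block, other thresholds, a distance limit of 100000 bases, and each library left out, keeping the tested sites and dispersion trend. Motifs were searched in the central 300 bases. Sequences came from RefSeq tables and the hg38 genome.

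The 5 genes, the gene lists and the tests were chosen with earlier results of these data known. Named sites were the site nearest to each start, promoter sites and the strongest site in Control among those named for each gene. Also named were up to 4 closed and 3 opened sites per gene (mean over the 21 libraries 1 CPM or more). The 3 sites with the lowest FDR between the combinations were named too. For CBFB and RUNX1T1, the promoter site and the site with the lowest p were named. Other sites are said in the text to have been added. 2 genes of the marker lists are not reported here and were left out of the lists' counts.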

Additional observations from a re-analysis of the deposited data

Results flagged for a closer look

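Differences between groups under the same Control passed the threshold at 5 member sites, in 6 tests of the difference itself (edgeR, over all tested sites). Between ARID1A and ARID1B silencing, the RUNX1 site at chr21:35239451-35240319 differed by -0.996 (SE 0.118, FDR 1.37e-10), and all 26 alternatives (other settings and each of the 21 libraries left out) kept the call, from -1.07 to -0.93. Between the combinations, the PRRX1 intron 2 site at chr1:170670951-170671890 differed by 0.707 (SE 0.135, FDR 6.58e-05) and kept its call under 26 of 26, whereas the one at chr1:170689268-170690349, at 0.591 (SE 0.161, FDR 0.00824), kept it under 18 of 26. Between shARID1B.2 and shARID1B.3, the first of these PRRX1 sites differed by -0.649 (SE 0.143, FDR 0.000453). That call was lost without shARID1B.2 replicate 1 or shARID1B.3 replicate 2 (largest FDR 0.0213). The PRRX1 site at chr1:170623275-170623627 differed by 1.162 (SE 0.286, FDR 0.00207), lost without the same libraries and with DESeq2 (largest FDR 0.0377). The RUNX2 site at chr6:45330745-45331404 differed by 1.213 (SE 0.215, FDR 9.4e-06) and kept its call under 26 of 26. The shARID1B.3 libraries 1 and 2 were the deeper ones of these groups, at 36799314 and 44472230 reads in sites, and the part of depth in these differences was not tested.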

How the results depend on the processing

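The calls at PRRX1 intron 4, PRRX2 intron 1 and the distal RUNX1 site (190551 bases upstream) held under all 14 alternatives of the combined contrast. Scaling on promoter sites gave 0 opened and 7 closed sites with shARID1A/B.2.3 and shARID1A/B.4.2 respectively (2 and 3 otherwise), and 3, 4 and 1 changed sites with shARID1A.2, shARID1A.4 and shARID1B.2. DESeq2 gave 1 changed site each with shARID1A.4 and shARID1B.2. At an FDR under 0.05, sites opened were 7 with shARID1A/B.2.3, 1 with ARID1A, 2 with ARID1B and 4 in combined against single silencing, and changed sites were 6, 4 and 4 with shARID1A.2, shARID1A.4 and shARID1B.2. Requiring a log2 change of at least 1 left 0 opened with shARID1A/B.2.3, 1 closed each with ARID1A and ARID1B, 0 in combined against single silencing, and 0, 0 and 1 changed with shARID1A.4, shARID1B.2 and shARID1B.3. Sites within 100000 bases of the start gave 2 closed by combined silencing, 2 with shARID1A/B.2.3, 1 with ARID1A and 1 against single silencing, and 0 and 1 changed with shARID1A.2 and shARID1A.4. By gene bodies, closed and opened sites were 8 and 3 (combined), 8 and 4 (shARID1A/B.2.3), 7 and 5 (shARID1A/B.4.2), 7 and 2 (ARID1A), 4 closed with ARID1B, and 4 and 3 (combined against single), and changed sites were 7, 5, 4 and 7 with shARID1A.2, shARID1A.4, shARID1B.2 and shARID1B.3. The cause of these moves was not tested, except that thresholds and site sets differ by construction.

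With 1 library left out, closed sites ranged from 4 to 5 (combined), 3 to 5 (shARID1A/B.2.3), 3 to 4 (shARID1A/B.4.2), 2 to 3 (ARID1A), 2 to 2 (ARID1B) and 1 to 3 (combined against single, with 1 without replicate 2 of either combination). Opened sites stayed at 0, except 1 to 3 with shARID1A/B.2.3 (1 without its replicate 2). Changed sites ranged from 1 to 2 with shARID1A.2 (2 without Control replicate 2 or shARID1A.2 replicate 1), 0 to 1 with shARID1A.4 (0 without Control replicate 1 or 3, and 1 without Control replicate 2 or any shARID1A.4 replicate), 1 to 2 with shARID1B.2 (1 without Control replicate 1 or 3, or shARID1B.2 replicate 1 or 3) and 2 to 3 with shARID1B.3. The opened call at chr6:45527133-45527347 was lost without Control replicate 2 or 3.

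The groups share replicate numbers, but only 8 of 63 same-numbered pairs of libraries had deviations correlated above 0.1 (range -0.21 to 0.37), so the numbers were not taken to pair libraries. With the replicate block, closed and opened sites were 5 and 0 (combined), 5 and 3 (shARID1A/B.2.3), 4 and 0 (shARID1A/B.4.2), 3 and 0 (ARID1A), 2 and 0 (ARID1B) and 3 and 0 (combined against single). Of the named sites the block changed 1 call after combined silencing, the PRRX2 start, to an FDR of 0.00754. TMM scaling would hide a shift common to most of the table, and the low counts of most members limit what could be detected.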
